A study of Mus musculus with 12 samples.

Results

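The change in liver gene expression between 6 h and 12 h after concanavalin A (Con A) was examined in mice given no mesenchymal stem cells (MSC). The comparison sets the 3 libraries of the group Con A 12 h against the 3 of the group Con A 6 h, chosen by the sample labels, and so uses 6 of the 12 libraries of the study. All of these mice are given as C57BL/6 and wild type, all received Con A, and none received MSC. The other 6 libraries, Con A+MSC at 6 h and at 12 h, serve to estimate the spread and for values set beside those of mice without MSC. The sources used here do not give age, sex, Con A dose or the hour of the day. The sample labels name liver as the tissue, while the series text speaks of hepatocyte RNA.

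Con A is a plant lectin that binds sugars on the cell surface and activates T cells. Injected into mice, it causes an immune hepatitis in which T cells, natural killer cells, macrophages and neutrophils release cytokines, and hepatocytes die or switch to a stress and acute-phase programme. Cytokine genes are usually switched on early and transiently, through NF-kB, AP-1 and STAT transcription factors, while plasma proteins of the acute phase are made by hepatocytes over a longer time.

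Each library held between 29688137 and 33546893 counts. Levels are given in CPM, counts scaled to library depth, after TMM scaling, and 3 counts in a library correspond to 0.0766 to 0.118 CPM. Of 23574 entries, 14275 had enough counts to be tested. Log2 changes are 12 h minus 6 h and carry their standard error, and means carry the SD over 3 libraries. The labels do not say whether replicates are separate animals, so a p-value here covers the spread among these libraries alone, and that spread may be technical. Mice without Con A were not analysed here, and time after injection and time of day cannot be told apart. In whole liver, fewer cells of a type and less RNA per cell cannot be told apart either. All 10 hepatocyte markers examined were present, with a summed level of 109578 to 135564 CPM at 6 h and 48690 to 68721 CPM at 12 h. Markers of immune, endothelial, stellate, bile duct and red cells were present as well, so the libraries held RNA of more than hepatocytes. Of 5 pancreas markers, Prss2, Cpa1, Pnlip and Ins2 had no count in any of the 6 libraries.

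The libraries of a time point differed in 2 respects that touch results given here. Mitochondrially encoded genes took 8.46%, 8.81% and 12.1% of the counts at 6 h and 5.59%, 17.3% and 24.9% at 12 h (exact two-sided permutation p = 0.4 for 15.95 ± 9.74% against 9.79 ± 2.01%; the smallest p that 3 against 3 allows is 0.1). In addition, most genes of a run of neighbours on chromosome 4, from Zfp37 to Col27a1 (chr4:62189540-63334991 in the GENCODE annotation of GRCm38), were high in Con A 12 h replicates 2 and 3 and not in replicate 1. Kif12, which encodes a kinesin motor, had 0, 0.132 and 0 CPM at 6 h and 0.332, 35.1 and 33.4 CPM at 12 h. Wdr31 had 0, 0 and 0 CPM at 6 h and 0.128, 39.9 and 37.5 CPM at 12 h, so that it had no count at 6 h and no fold is given (edgeR adjusted p = 0.0337). Zfp37, a zinc finger gene, had 0.179, 0 and 0.237 CPM at 6 h and 0.255, 54.1 and 51.2 CPM at 12 h. These 3 genes were the largest rises of the whole comparison by the rule for named genes, and each rests on 2 libraries. In mice with MSC, Wdr31 had 0, 0.0706 and 55.5 CPM at 6 h and 11.1, 0.394 and 9.67 CPM at 12 h. Ambp, inside the run, and Orm1, at its edge, did not show this split. Inside the run, 4933430I17Rik had 0.0255, 0 and 26.2 CPM at 12 h. Beyond Orm1, Akna had 2.33, 2.97 and 3.43 CPM at 6 h and 1.02, 83.7 and 1.66 CPM at 12 h. Orm2, which also lies beyond Orm1, had 271, 426 and 353 CPM at 6 h and 676, 1341 and 1692 CPM at 12 h. The call for Wdr31 was lost when Con A 6 h replicate 1, 2 or 3 or Con A 12 h replicate 2 or 3 was left out and with the mitochondrial share as covariate (edgeR adjusted p 0.0558 to 0.21). The call for Col27a1 was lost when Con A 6 h replicate 1, 2 or 3 or Con A 12 h replicate 2 or 3 was left out and with the mitochondrial share as covariate (edgeR adjusted p 0.0533 to 0.218).

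**Figure D1:**
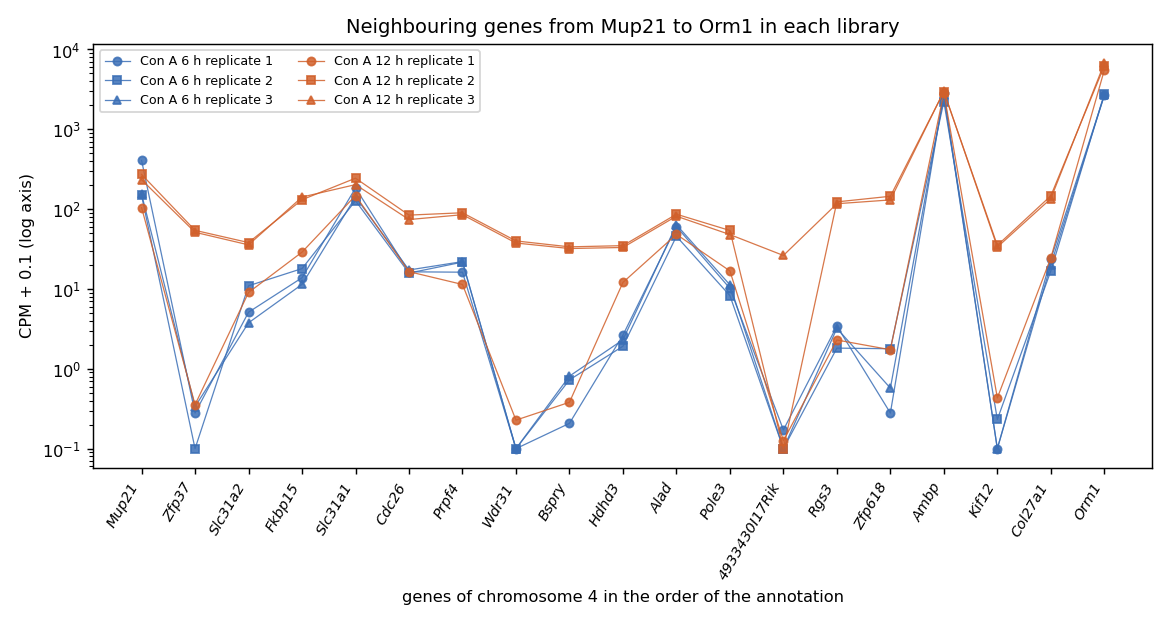
Levels of neighbouring chromosome 4 genes (x axis, in the order of the annotation) in each of the 6 libraries (y axis, CPM plus 0.1, log scale; blue for Con A 6 h, orange for Con A 12 h, 1 symbol per replicate). Con A 12 h replicates 2 and 3 lie together above the other 4 libraries at Zfp37, Wdr31 and Kif12, while Con A 12 h replicate 1 lies with the 6 h libraries there.

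Between 6 h and 12 h, 3479 genes rose (24.4% of those tested) and 3541 fell (24.8%), at an adjusted p below 0.05 in edgeR's quasi-likelihood test with Benjamini-Hochberg adjustment. At least 2-fold changes were 2006 of the rises and 2332 of the falls. For 7816 genes (54.8%) the 3 libraries of one time lay all above or all below those of the other. Libraries of different times differed on average by log2 0.684 to 0.764 per gene, and libraries of the same time by 0.265 to 0.415. The split between directions depends on the scaling. With plain scaling by total count instead of TMM, 4301 genes rose and 2353 fell, so that the share of rises among the calls went from 49.6% to 64.6% and the median log2 change of all genes from 0.02 to 0.28. Changes below are with TMM scaling, and a list is read against the 24.4% and 24.8% of all genes that passed in each direction.

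**Figure D2:**
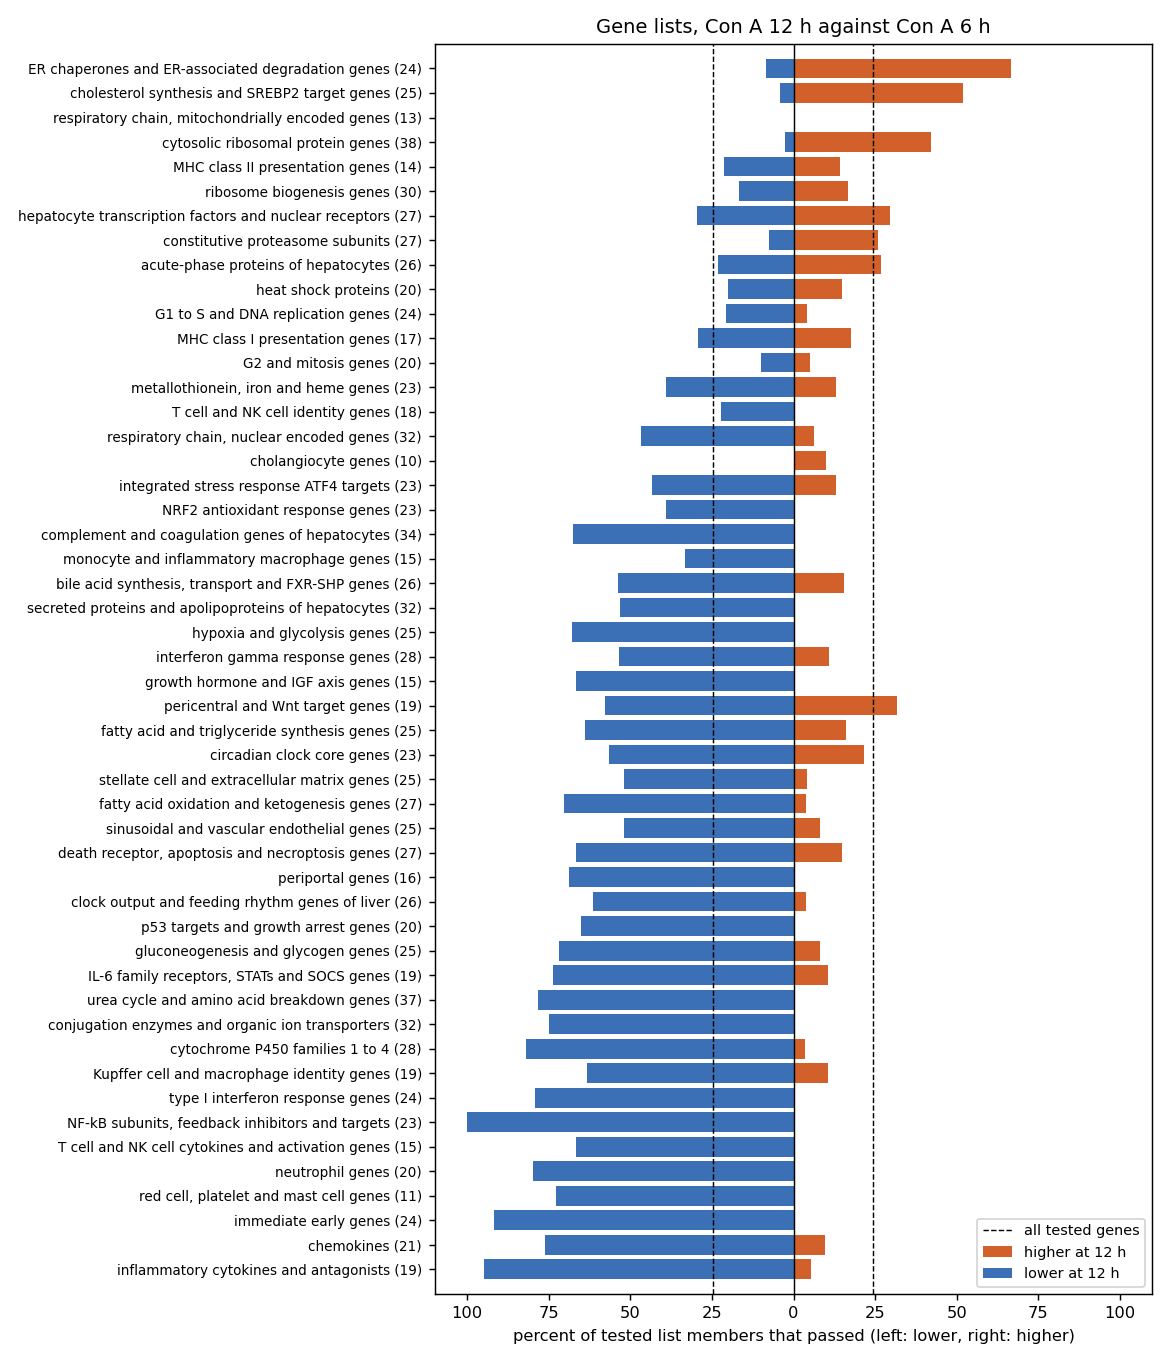
For each gene list with at least 10 tested members (number in brackets), the percent of members that rose (orange, to the right) and fell (blue, to the left) from 6 h to 12 h, sorted by the list's median log2 change. Dashed lines mark the 24.4% and 24.8% of all tested genes. The lists of ER chaperones and cholesterol synthesis lie at the top with more rises than falls, and the lists of cytokines, chemokines and immediate early genes at the bottom with mostly falls.

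Cytokines and chemokines were high at 6 h and low at 12 h. Of 19 inflammatory cytokines and antagonists tested, 1 rose, 18 fell and 0 did not pass, with a median log2 change of -3.33. Tnf, the cytokine that drives hepatocyte death in this model, had 4.26, 18.6 and 10.6 CPM at 6 h and 0.562, 0.492 and 1.63 CPM at 12 h. The groups did not overlap, replicate 1 was the lowest at 6 h and replicate 3 the highest at 12 h (log2 -3.66 ± 0.58, edgeR adjusted p = 3.3e-04). Il1b, made by activated macrophages and neutrophils, had 7.88, 16.6 and 24.0 CPM at 6 h and 0.638, 0.722 and 1.85 CPM at 12 h (log2 -3.94 ± 0.57, edgeR adjusted p = 1.8e-04). The groups did not overlap here either, and replicate 3 was again the highest at 12 h. Csf3, the growth factor that releases neutrophils from the marrow, had 9.10, 25.8 and 26.5 CPM at 6 h and 0, 0 and 0.111 CPM at 12 h. At 12 h 3 counts of Csf3 were left against 1708 at 6 h, a ratio of 659 with an exact 95% counting interval of 225 to 3200, which covers counting error only (edgeR adjusted p = 2.1e-05). Il6, the main inducer of the acute-phase response, fell from 185 counts to 3, a ratio of 71.4 (interval 24.0 to 349; edgeR adjusted p = 2.7e-04). Osm and Il1a fell as well (log2 -5.56 and -4.03), as did the antagonists Il1rn (-3.33) and Il10 (-3.07), an anti-inflammatory cytokine. Il18bp, which binds and blocks interleukin 18, was the exception and rose (log2 1.18 ± 0.28, edgeR adjusted p = 0.00428). The summed level of 7 neutrophil markers went from 106 to 158 CPM at 6 h to 22.4 to 38.9 CPM at 12 h, and that of 7 Kupffer cell markers from 28.6 to 66.6 CPM to 6.10 to 17.3 CPM, with 6 and 5 markers falling; their part in the fall of the cytokines was not tested.

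Of 21 chemokines tested, 2 rose, 16 fell and 3 did not pass, with a median of -2.92. Cxcl2, which attracts neutrophils, had 64.7, 173 and 138 CPM at 6 h and 3.50, 4.76 and 8.32 CPM at 12 h (log2 -4.51 ± 0.59, edgeR adjusted p = 9.0e-05). Every 6 h library was above every 12 h library by a wide margin. Ccl2, the monocyte attractant, had 86.7, 163 and 141 CPM at 6 h and 6.64, 7.51 and 21.4 CPM at 12 h (log2 -3.46 ± 0.46, edgeR adjusted p = 9.7e-05). The macrophage chemokines Ccl3 and Ccl4 and the neutrophil chemokine Cxcl3 fell too (log2 -5.14, -4.36 and -4.20). The CXCR3 ligands, which attract activated T cells, fell as well. Cxcl10 had 1568, 966 and 2302 CPM at 6 h and 88.9, 142 and 409 CPM at 12 h (log2 -2.92 ± 0.51, edgeR adjusted p = 6.0e-04), while Cxcl9 had 6308, 5211 and 6825 CPM at 6 h and 2006, 3263 and 4336 CPM at 12 h and changed by log2 -0.93 ± 0.28 (edgeR adjusted p = 0.0162). The call for Cxcl9 was lost when Con A 6 h replicate 1 or 3 or Con A 12 h replicate 1 or 2 was left out and in a fit of these 6 libraries alone (edgeR adjusted p 0.05 to 0.0693). Cxcl12 and Cxcl14 rose (log2 1.10 and 1.03); Cxcl12 is a chemokine of resting tissue that holds leukocytes and progenitors in place. 

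**Figure D3:**
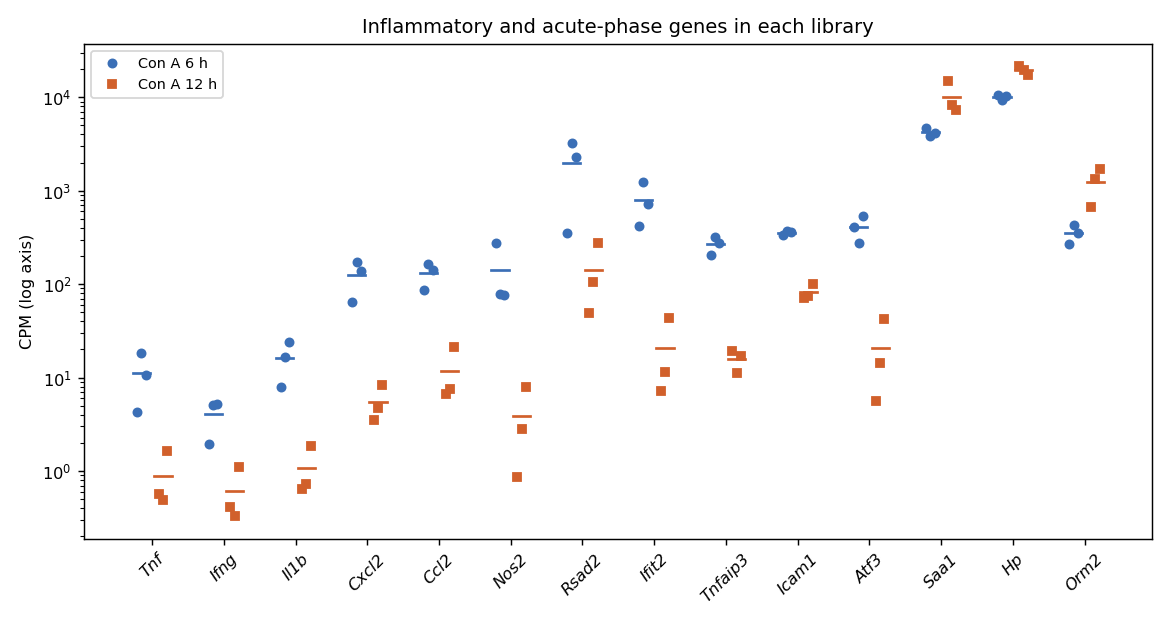
CPM (log axis) of 14 genes in each library, blue circles for Con A 6 h and orange squares for Con A 12 h, with a line at each mean. The first 11 genes lie lower at 12 h in every library than in any 6 h library. The third replicate is the highest of the 12 h libraries for each of these genes except Tnfaip3. The acute-phase genes Saa1, Hp and Orm2 lie higher at 12 h.

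Most tested activation genes of T and natural killer cells fell, while genes that mark the identity of these cells mostly did not pass. Of 15 cytokine and activation genes tested, 0 rose, 10 fell and 5 did not pass, with a median of -2.07. Ifng, the cytokine of activated T and natural killer cells, had 1.94, 5.08 and 5.24 CPM at 6 h and 0.409, 0.328 and 1.11 CPM at 12 h (log2 -2.75 ± 0.59, edgeR adjusted p = 0.00218). A part of its annotated exons is shared with a predicted gene, so reads may be divided between them. The costimulatory receptor gene Tnfrsf9, the transcription factor gene Batf and the early activation marker Cd69 fell (log2 -2.81, -2.32 and -2.07). Of 18 identity genes, 0 rose, 4 fell (against 24.8% of all tested genes) and 14 did not pass, with a median of -0.40. That median depended on single libraries: it was -0.12 without Con A 12 h replicate 1, -0.20 without Con A 6 h replicate 3 and -0.66 without Con A 6 h replicate 2, and -0.75 with the mitochondrial share as covariate. The falls included Lck, the kinase of T cell receptor signalling (log2 -1.63). Cd3g, a chain of the T cell receptor complex, had 0.745 ± 0.0753 CPM at 6 h and 0.473 ± 0.107 CPM at 12 h and did not pass, and neither did the coreceptor gene Cd8a, with 1.04 ± 0.738 CPM at 6 h and 0.559 ± 0.293 CPM at 12 h. The summed level of the identity genes was 25.0 to 38.6 CPM at 6 h and 14.7 to 28.1 CPM at 12 h. Of 9 B cell and plasma cell genes, 0 rose, 1 fell and 8 did not pass. 

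Many genes of the interferon gamma response and most of the type I interferon response fell. Of 28 genes of the interferon gamma response, 3 rose, 15 fell and 10 did not pass, with a median of -0.91. The median was -1.58 with 17 falls without Con A 12 h replicate 3, and -1.55 with 18 falls with the mitochondrial share as covariate. In each of these fits and without Con A 6 h replicate 1, 1 member rose. The median was -0.71 with 13 falls without Con A 12 h replicate 1, and -0.75 with 12 falls without Con A 12 h replicate 2. With scaling by total count it was -0.72 with 13 falls. Gbp5, a GTPase that attacks pathogen membranes, had 245, 254 and 257 CPM at 6 h and 11.9, 11.2 and 31.6 CPM at 12 h (log2 -3.79 ± 0.38, edgeR adjusted p = 1.5e-05). Its 6 h libraries lay close together and all 12 h libraries were far below them. Gbp2 and the transcription factor gene Irf1 fell (log2 -2.58 and -1.80). Nos2, the inducible nitric oxide synthase, had 274, 78.1 and 76.6 CPM at 6 h and 0.868, 2.82 and 7.92 CPM at 12 h (log2 -5.23 ± 0.79, edgeR adjusted p = 2.3e-04). The 3 rises of this list were Psmb8, Psmb9 and Psmb10 (log2 0.75, 0.49 and 0.63), the catalytic subunits that convert the proteasome to the immunoproteasome. The call for Psmb8 was lost when Con A 6 h replicate 1 or Con A 12 h replicate 3 was left out and with the mitochondrial share as covariate (edgeR adjusted p 0.0502 to 0.0566). The call for Psmb9 was lost when Con A 6 h replicate 1 or 3 or Con A 12 h replicate 3 was left out and in a fit of these 6 libraries alone and with the mitochondrial share as covariate (edgeR adjusted p 0.0669 to 0.14). 

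Of 24 genes of the type I interferon response, 0 rose, 19 fell and 5 did not pass, with a median of -1.80. Without Con A 6 h replicate 2, 14 fell and the median was -1.17. Rsad2, which encodes the antiviral enzyme viperin, had 351, 3250.0 and 2294 CPM at 6 h and 48.9, 104 and 276 CPM at 12 h (log2 -3.78 ± 0.86, edgeR adjusted p = 0.00324). The 6 h libraries were spread widely, with replicate 1 far below the other two, and were still all above the 12 h libraries. Ifit2, which binds viral RNA, had 418, 1249 and 713 CPM at 6 h and 7.17, 11.5 and 43.6 CPM at 12 h (log2 -5.26 ± 0.80, edgeR adjusted p = 2.4e-04). Usp18, the enzyme that removes ISG15 from proteins and dampens interferon signalling, fell (log2 -2.71 ± 0.35). Isg15, the ubiquitin-like modifier itself, had 312, 832 and 609.8 CPM at 6 h and 228, 204 and 394 CPM at 12 h (log2 -1.09 ± 0.35, edgeR adjusted p = 0.0225). The call for Isg15 was lost when Con A 6 h replicate 2 or 3 or Con A 12 h replicate 1 or 2 was left out and in a fit of these 6 libraries alone (edgeR adjusted p 0.0529 to 0.118). The summed level of the list was 3570 to 13500 CPM at 6 h and 1590 to 3110 CPM at 12 h.

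NF-kB is a transcription factor held inactive by inhibitor proteins and released by cytokine and danger signals, and many of its targets are its own inhibitors. All 23 tested genes of its subunits, feedback inhibitors and targets fell, with a median of -2.04, against 24.8% of all genes. Tnfaip3, which encodes the inhibitor A20, had 207, 320.2 and 272 CPM at 6 h and 19.4, 11.3 and 16.8 CPM at 12 h (log2 -4.07 ± 0.35, edgeR adjusted p = 7.9e-06). Nfkbia, the inhibitor IkB alpha, had 161, 355 and 333 CPM at 6 h and 40.0, 71.0 and 91.6 CPM at 12 h (log2 -2.07 ± 0.38, edgeR adjusted p = 8.1e-04). Icam1, an adhesion molecule for leukocytes, had 339, 370.0 and 360.1 CPM at 6 h and 70.6, 75.4 and 100.0 CPM at 12 h (log2 -2.12 ± 0.18, edgeR adjusted p = 7.8e-06). The 3 libraries of each time lay close together for Icam1, and the groups did not overlap for any of these 3. The subunit genes Nfkb1 and Rel fell (log2 -1.86 and -2.73), and so did Tnip1, an A20 partner (-2.34). Sele, the selectin of activated endothelium, was among the largest falls of the whole comparison, with 14.9, 7.89 and 17.3 CPM at 6 h and 0.179, 0 and 0.222 CPM at 12 h (log2 -6.60 ± 0.67, edgeR adjusted p = 1.7e-05).

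The 250 bases before the start of 18 of these 23 genes were read from RefSeq (GRCm38.p6) and searched on both strands for the NF-kB site consensus. It was found in 8 of them, against 8.38% of the 10583 tested genes with such a sequence and 5.93% of all 32851 windows. The sequences below show 4 of these genes, with the match in capitals and up to 20 bases on either side: Nfkbia at chr12:55492648-55492696 (minus strand), Tnip1 at chr11:54962969-54963018 (minus strand), Rel at chr11:23771032-23771081 (minus strand) and Nfkbie at chr17:45555574-45555623 (plus strand). They are shown as examples of members that are inhibitors or subunits of NF-kB. Nfkb2, a subunit gene, and Tnfaip3 also held matches and are not shown. Members without a match fell too.
Nfkbia: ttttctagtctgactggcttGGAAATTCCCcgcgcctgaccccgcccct
Tnip1: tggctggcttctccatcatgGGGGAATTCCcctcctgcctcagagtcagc
Rel: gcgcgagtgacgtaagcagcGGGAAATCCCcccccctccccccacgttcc
Nfkbie: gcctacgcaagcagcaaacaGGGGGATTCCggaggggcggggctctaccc

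Immediate early genes, which need no new protein for their induction and mostly code for regulators of transcription, were also down at 12 h. Of 24 tested, 0 rose, 22 fell and 2 did not pass, with a median of -2.60. Ier3, a regulator of cell survival, had 139.8, 199 and 185 CPM at 6 h and 4.06, 6.99 and 8.43 CPM at 12 h (log2 -4.75 ± 0.29, edgeR adjusted p = 1.6e-06). Atf3, a stress-induced transcription factor, had 409.9, 274 and 537 CPM at 6 h and 5.59, 14.4 and 42.4 CPM at 12 h (log2 -4.30 ± 0.60, edgeR adjusted p = 1.4e-04). Both were lower in each 12 h library than in any 6 h library, and replicate 3 kept the highest level at 12 h. Btg2, Fosl2 and Junb fell (log2 -4.23, -2.08 and -2.21), and Myc, a driver of growth, had 39.7, 29.2 and 75.4 CPM at 6 h and 5.87, 9.88 and 19.9 CPM at 12 h (log2 -2.02 ± 0.44, edgeR adjusted p = 0.00243). Ier5 and Klf10 were the members that did not pass.

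Genes of signalling and injury programmes mostly fell. Of 19 genes of IL-6 family receptors, STATs and SOCS proteins, 2 rose, 14 fell and 3 did not pass, with a median of -1.35. Socs3, the feedback inhibitor of IL-6 signalling, had 421, 271 and 366 CPM at 6 h and 148, 143 and 105 CPM at 12 h (log2 -1.42 ± 0.28, edgeR adjusted p = 0.00146). Jak2, Cish, Pim1 and Socs2 fell (log2 -2.69, -2.42, -2.08 and -3.60). Of 27 genes of death receptors, apoptosis and necroptosis, 4 rose, 18 fell and 5 did not pass, with a median of -1.12. Fas, the death receptor, fell (log2 -1.81 ± 0.16) and so did both the pro-apoptotic Bcl2l11 (-2.67) and the anti-apoptotic Bcl2l1 (-1.91). Bax, a pore-forming effector of apoptosis, rose (log2 1.24 ± 0.25, edgeR adjusted p = 0.0017), with 18.8, 42.6 and 31.4 CPM at 6 h and 58.4, 75.1 and 86.5 CPM at 12 h. Of 20 p53 targets and growth arrest genes, 0 rose, 13 fell and 7 did not pass, with a median of -1.24. Cdkn1a, the cell cycle inhibitor p21, had 275, 288 and 264 CPM at 6 h and 96.0, 129 and 117 CPM at 12 h (log2 -1.28 ± 0.19, edgeR adjusted p = 2.0e-04). Gadd45a and Gdf15 fell (log2 -3.13 and -3.24).

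Of 25 genes of hypoxia and glycolysis, 0 rose, 17 fell and 8 did not pass, with a median of -0.89. Vegfa, the growth factor of blood vessels, had 416, 306 and 340.1 CPM at 6 h and 83.3, 86.8 and 72.7 CPM at 12 h (log2 -2.13 ± 0.17, edgeR adjusted p = 5.4e-06). Pfkfb3 and Hk2, regulators of glycolysis, fell (log2 -3.67 and -3.55). Adm, the vessel-dilating peptide adrenomedullin, had 69.4, 132 and 173 CPM at 6 h and 1.05, 1.94 and 4.70 CPM at 12 h (log2 -5.63 ± 0.50, edgeR adjusted p = 8.4e-06), a 49.5-fold fall. Of 23 antioxidant genes of NRF2, 0 rose, 9 fell and 14 did not pass. Hmox1, the heme-degrading enzyme, had 399, 426 and 562 CPM at 6 h and 23.4, 39.9 and 49.9 CPM at 12 h (log2 -3.62 ± 0.30, edgeR adjusted p = 6.1e-06). The integrated stress response list was mixed. Of 23 tested, 3 rose, 10 fell and 10 did not pass, with Ddit4 down (log2 -4.42 ± 0.45, edgeR adjusted p = 1.6e-05) and Atf5 and Fgf21 up (log2 1.66 and 3.68). The number of falls in that list was 6 with scaling by total count, in a fit of these 6 libraries alone or without Con A 12 h replicate 1.

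Acute-phase proteins of hepatocytes rose and fell at about the shares of all tested genes. Of 26 tested, 7 rose, 6 fell and 13 did not pass, against 24.4% and 24.8% of all genes that rose and fell. The list median was 0.02. It was -0.07 without Con A 6 h replicate 2 and -0.01 without Con A 12 h replicate 2, so its sign depends on these libraries. Saa1, a serum amyloid protein, had 4738, 3842 and 4185 CPM at 6 h and 14819, 8279.7 and 7364 CPM at 12 h (log2 1.25 ± 0.27, edgeR adjusted p = 0.00213). Saa2, a near-identical neighbour, had 6197, 5224 and 5938 CPM at 6 h and 16336, 10944 and 8679 CPM at 12 h (log2 1.05 ± 0.25, edgeR adjusted p = 0.00423), and reads could be divided between them by the counting. Hp, the hemoglobin scavenger haptoglobin, had 10562, 9361 and 10234 CPM at 6 h and 21355, 19644 and 17390.5 CPM at 12 h (log2 0.95 ± 0.21, edgeR adjusted p = 0.00287). For these 3 genes each 12 h library was above each 6 h library, and replicate 1 was the highest at 12 h. Saa3, Orm1, Orm2 and Apcs rose as well (log2 1.64, 1.19, 1.82 and 1.62). Lcn2, an iron-binding protein of hepatocytes and neutrophils, had 4678, 6012 and 5184 CPM at 6 h and 5012, 10123 and 10681 CPM at 12 h and did not pass (log2 0.70 ± 0.30, edgeR adjusted p = 0.0703). Steap4, a metal reductase, and Crp fell (log2 -2.91 and -1.63), with 6744, 5355 and 5969.9 CPM at 6 h and 983, 816 and 602 CPM at 12 h for Steap4. Lbp, the lipopolysaccharide carrier, fell (log2 -0.96).

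In the list of metallothionein, iron and heme genes, 3 rose, 9 fell and 11 did not pass of 23 tested; 5 fell with scaling by total count. Hjv, which encodes hemojuvelin, a coreceptor that switches on hepcidin, had 5.59, 3.24 and 3.47 CPM at 6 h and 44.4, 60.8 and 53.2 CPM at 12 h (log2 3.69 ± 0.22, edgeR adjusted p = 1.6e-06) and had among the smallest adjusted p-values of all rises. Hamp, hepcidin itself, which blocks iron export, had 2098, 2064 and 2069 CPM at 6 h and 689, 1976 and 1212 CPM at 12 h and did not pass (log2 -0.68 ± 0.45, edgeR adjusted p = 0.224). Slc40a1, the iron exporter ferroportin, had 9.71, 5.28 and 3.47 CPM at 6 h and 38.5, 31.7 and 24.9 CPM at 12 h (log2 2.36 ± 0.30, edgeR adjusted p = 7.3e-05). Every 12 h library was above every 6 h library for Slc40a1. The zinc-binding metallothionein genes Mt1 and Mt2 had 6897, 7144 and 8291 CPM at 6 h and 4741, 10849 and 11886 CPM at 12 h, and 5273, 4081 and 5509 CPM at 6 h and 3065, 5806 and 6732 CPM at 12 h. Con A 12 h replicate 1 was below all 6 h libraries for both and replicates 2 and 3 above them, and neither gene passed (log2 0.30 ± 0.35 for Mt1 and log2 0.07 ± 0.29 for Mt2, edgeR adjusted p = 0.501 and 0.86). Most of the annotated exon length of Mt2 lies opposite another gene, and the sources used here do not give the strandedness of the counts.

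Chaperones of the endoplasmic reticulum (ER), where secreted proteins fold, rose. Of 24 genes of ER chaperones and ER-associated degradation, 16 rose, 2 fell and 6 did not pass, with a median of 1.14. Derl3, a channel component of ER-associated degradation, had 0.215, 3.43 and 1.14 CPM at 6 h and 68.9, 86.5 and 68.7 CPM at 12 h (log2 5.53 ± 1.05, edgeR adjusted p = 0.00109), a 46.0-fold rise. The groups did not overlap. Sdf2l1, a cofactor of the main ER chaperone, had 13.0, 34.6 and 8.64 CPM at 6 h and 209.5, 225 and 221 CPM at 12 h (log2 3.54 ± 0.41, edgeR adjusted p = 4.3e-05). Creld2, a secreted stress protein, had 54.9, 165 and 71.4 CPM at 6 h and 444, 439 and 351 CPM at 12 h (log2 2.08 ± 0.34, edgeR adjusted p = 4.2e-04). For Derl3, Sdf2l1 and Creld2, replicate 2 was the highest at 6 h. Pdia4, a disulfide isomerase, Sel1l and Dnajb11 rose by log2 2.01, 1.52 and 1.39, and Calr, Hsp90b1 and Manf by 1.39, 1.41 and 1.41. Hspa5, the main ER chaperone BiP, had 979.6, 1335 and 888 CPM at 6 h and 1752, 1637 and 1302 CPM at 12 h and did not pass (log2 0.55 ± 0.23, edgeR adjusted p = 0.0614). The 2 falls were Atf6 (log2 -1.02) and Xbp1 (-0.49), which encode transcription factors of the unfolded protein response. The call for Xbp1 was lost when Con A 6 h replicate 1 or 3 or Con A 12 h replicate 1 or 3 was left out and in a fit of these 6 libraries alone and with scaling by total count (edgeR adjusted p 0.0517 to 0.205). Leaving out any library or scaling by total count gave 14 to 18 rises in this list.

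The ER stress element, to which ATF6 and its partners bind, consists of CCAAT and CCACG separated by any 9 bases. It was searched on both strands in the 250 bases before the start (RefSeq, GRCm38.p6), which were on hand for 20 of the 24 genes. The element was found in 9 of the 20, against 0.17% of the 10583 tested genes with such a sequence and 0.11% of all 32851 windows. Of these 9 genes, 7 rose and Hspa5 and another did not pass. A match is a description of the sequence and was not tested for function. The sequences of 6 genes that rose and of Hspa5 are given with 20 bases on either side, the 2 parts of the element in capitals, written along the gene's strand. On the opposite strand the element reads CGTGG, 9 bases, then ATTGG. The stretches lie at chr10:75893222-75893280 (plus strand, Derl3), chr15:88819500-88819558 (plus, Creld2), chr8:84847055-84847113 (minus, Calr), chr12:17266471-17266529 (plus, Pdia6), chr14:118937807-118937865 (plus, Dnajc3), chr19:6046512-6046570 (plus, Syvn1) and chr2:34772005-34772063 (plus, Hspa5).
Derl3: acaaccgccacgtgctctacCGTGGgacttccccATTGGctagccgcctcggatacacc
Creld2: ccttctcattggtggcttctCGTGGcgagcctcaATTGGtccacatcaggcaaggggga
Calr: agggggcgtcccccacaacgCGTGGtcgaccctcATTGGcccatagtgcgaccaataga
Pdia6: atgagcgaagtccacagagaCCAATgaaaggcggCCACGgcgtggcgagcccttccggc
Dnajc3: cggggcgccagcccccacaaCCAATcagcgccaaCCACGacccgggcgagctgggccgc
Syvn1: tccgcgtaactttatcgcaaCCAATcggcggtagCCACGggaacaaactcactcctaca
Hspa5: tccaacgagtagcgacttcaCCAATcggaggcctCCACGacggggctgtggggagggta

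The changes of the genes shown were log2 5.53 (Derl3), 2.08 (Creld2), 1.48 (Syvn1, the ubiquitin ligase of ER-associated degradation), 1.39 (Calr), 1.18 (Pdia6) and 0.80 (Dnajc3). The stretches shown lie between 6 and 182 bases before the start. The call for Syvn1 was lost when Con A 6 h replicate 3 was left out (edgeR adjusted p = 0.0583).

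**Figure D4:**
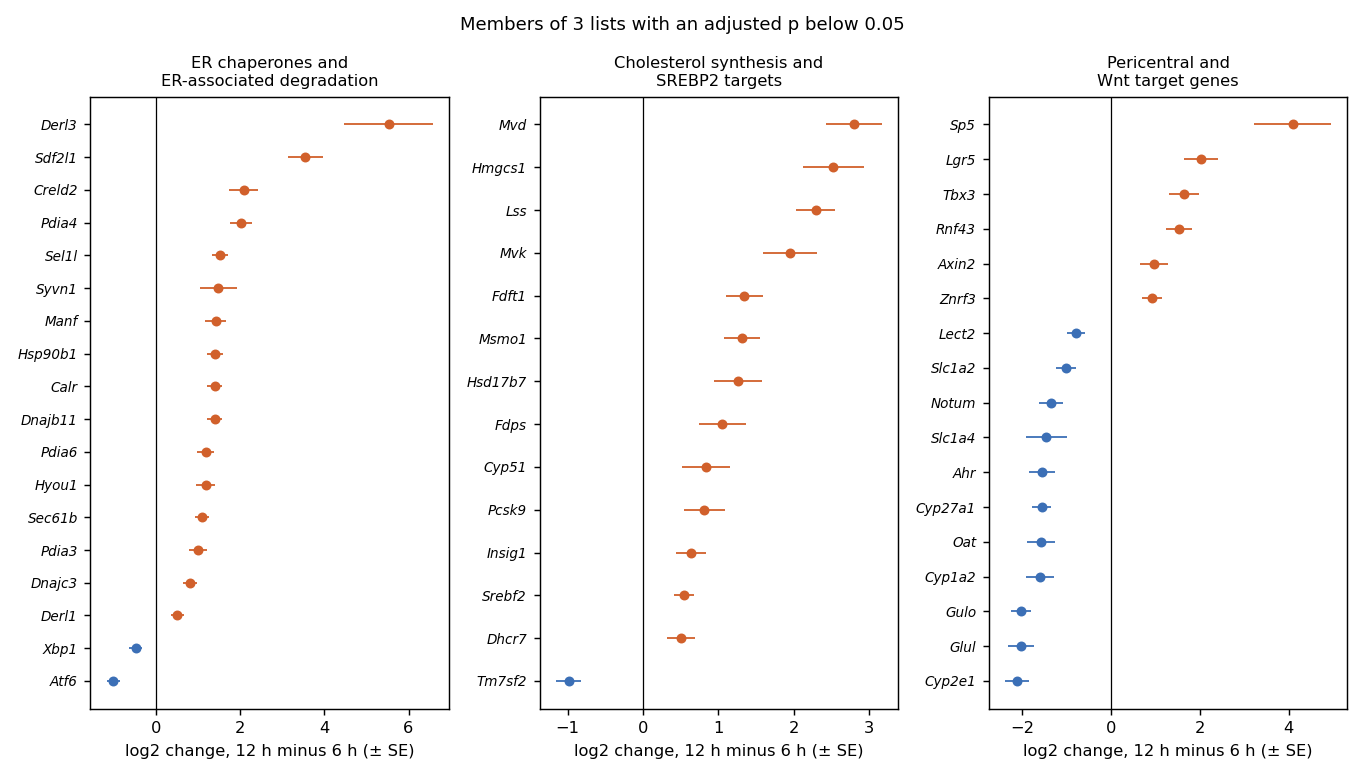
Log2 change from 6 h to 12 h (x axis, points with bars of 1 standard error) for the members that passed in the lists of ER chaperones, cholesterol synthesis, and pericentral and Wnt target genes; orange points rose and blue points fell. Derl3 and Sdf2l1 lead the first list, Mvd and Hmgcs1 the second, and in the third Sp5, Lgr5, Tbx3 and Rnf43 lie to the right of 0 while Glul and Cyp2e1 lie near -2.

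Many genes of cholesterol synthesis rose, and most of those of fatty acid metabolism fell. Of 25 genes of cholesterol synthesis and SREBP2, its transcription factor, 13 rose, 1 fell and 11 did not pass, with a median of 0.64. The rises numbered 9 without Con A 6 h replicate 3 or without Con A 12 h replicate 1, and 15 with scaling by total count. Hmgcs1, which makes the precursor HMG-CoA, had 116, 56.2 and 57.3 CPM at 6 h and 502, 501 and 315 CPM at 12 h (log2 2.52 ± 0.40, edgeR adjusted p = 3.2e-04). Mvd, a mevalonate pathway enzyme, had 9.86, 7.43 and 3.90 CPM at 6 h and 48.1, 50.5 and 49.0 CPM at 12 h (log2 2.80 ± 0.37, edgeR adjusted p = 1.0e-04). The 12 h libraries were all above the 6 h libraries for both. Lss and Fdft1, later enzymes, rose by log2 2.29 and 1.34. Tm7sf2, a sterol reductase, was the member that fell (-0.99). Of 25 genes of fatty acid and triglyceride synthesis, 4 rose, 16 fell and 5 did not pass, with a median of -1.04. The falls numbered 12 with scaling by total count, where 6 rose. Scd1, the desaturase, had 5124, 3513 and 4454 CPM at 6 h and 379.6, 431 and 236 CPM at 12 h (log2 -3.64 ± 0.47, edgeR adjusted p = 8.9e-05). Thrsp, Lpin1 and Elovl6 fell (log2 -3.62, -2.89 and -2.53), and Plin2, which coats lipid droplets, rose (log2 0.91 ± 0.35, edgeR adjusted p = 0.0441). The call for Plin2 was lost when Con A 6 h replicate 1 or 2 or Con A 12 h replicate 2 or 3 was left out and in a fit of these 6 libraries alone and with the mitochondrial share as covariate (edgeR adjusted p 0.0604 to 0.125). Of 27 genes of fatty acid oxidation and ketogenesis, 1 rose, 19 fell and 7 did not pass, with a median of -1.06. Scaling by total count gave 13 falls and 3 rises. Ppara, the receptor that switches this programme on, fell (log2 -1.98), and so did its targets Ehhadh and Cpt1a (-2.71 and -1.33). Fgf21, a fasting hormone, was the member that rose, with 0.179, 0.132 and 0.158 CPM at 6 h and 0.664, 4.36 and 1.11 CPM at 12 h. 

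Metabolic enzymes of hepatocytes fell broadly, and so did 7 of the 10 hepatocyte markers, whose part in these falls was not tested. Of 37 genes of the urea cycle and amino acid breakdown, 0 rose, 29 fell and 8 did not pass, with a median of -1.45. Cps1, the first enzyme of the urea cycle, had 2476, 1424 and 1853 CPM at 6 h and 319, 228 and 252 CPM at 12 h (log2 -2.85 ± 0.34, edgeR adjusted p = 5.3e-05). Sds and Gpt fell (log2 -2.34 and -2.20). Of 28 cytochrome P450 genes of families 1 to 4, 1 rose, 23 fell and 4 did not pass, with a median of -1.64. Without Con A 6 h replicate 2, 3 rose. Cyp2e1, an ethanol- and drug-oxidizing enzyme, had 5424, 3771 and 6069 CPM at 6 h and 844, 1634 and 1048 CPM at 12 h (log2 -2.11 ± 0.27, edgeR adjusted p = 7.3e-05). Cyp2f2 and Cyp4f15 fell (log2 -2.19 and -2.45). Cyp2a4, among the largest falls, had 18.1, 18.9 and 48.9 CPM at 6 h and 0.332, 0.689 and 0.629 CPM at 12 h (log2 -5.72 ± 0.61, edgeR adjusted p = 2.3e-05), and reads could be divided between it and its near-identical neighbour Cyp2a5 (-4.40). Cyp2u1 was the member that rose (log2 3.38 ± 0.26, edgeR adjusted p = 5.0e-06). Of 32 conjugation enzymes and organic ion transporters, 0 rose, 24 fell and 8 did not pass, with a median of -1.48. The transporter genes Slco1a4 and Abcc3 and the glucuronosyltransferase gene Ugt2b36 led by adjusted p (log2 -4.61, -2.16 and -2.12). Of 25 genes of gluconeogenesis and glycogen, 2 rose, 18 fell and 5 did not pass, with a median of -1.27. Without Con A 6 h replicate 1, 4 rose. Gys2, the liver glycogen synthase, and Igfbp1 fell (log2 -3.03 and -4.14). Pck1, which commits carbon to glucose, had 1006, 1469 and 1139 CPM at 6 h and 647, 843 and 817 CPM at 12 h (log2 -0.65 ± 0.24, edgeR adjusted p = 0.0384). The call for Pck1 was lost when Con A 6 h replicate 2 or 3 or Con A 12 h replicate 1, 2 or 3 was left out and in a fit of these 6 libraries alone, with scaling by total count and without the filter on low counts (edgeR adjusted p 0.06 to 0.159). G6pc and Irs1 rose (log2 2.32 and 2.42), G6pc being the enzyme that releases free glucose.

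Genes of secreted plasma proteins fell as well. Of 32 secreted proteins and apolipoproteins, 0 rose, 17 fell and 15 did not pass, with a median of -0.80. Alb, serum albumin, had 71961, 63928 and 63656 CPM at 6 h and 18950.5, 30145 and 33822 CPM at 12 h (log2 -1.27 ± 0.27, edgeR adjusted p = 0.00197). Con A 12 h replicate 1 was the lowest library. Igfbp2 and Serpina6, the carrier of glucocorticoids, fell (log2 -1.78 and -2.68). Of 34 complement and coagulation genes, 0 rose, 23 fell and 11 did not pass. The falls numbered 9 with scaling by total count and 15 without Con A 6 h replicate 1. Serpind1 and F5 led this list (log2 -2.06 and -1.66). Of 26 bile acid genes, 4 rose, 14 fell and 8 did not pass, with a median of -0.80; without Con A 6 h replicate 3, 9 fell, and 2 rose with the mitochondrial share as covariate. Slc10a1, the bile acid uptake transporter NTCP, had 314, 153 and 262 CPM at 6 h and 25.0, 35.9 and 21.5 CPM at 12 h (log2 -3.14 ± 0.31, edgeR adjusted p = 1.5e-05). Nr0b2, which encodes SHP, the repressor induced by bile acids through the receptor FXR, had 2.90, 4.33 and 2.68 CPM at 6 h and 29.2, 39.8 and 28.5 CPM at 12 h (log2 3.29 ± 0.34, edgeR adjusted p = 1.9e-05). Nr1h4, which encodes FXR, rose as well (log2 0.99 ± 0.28, edgeR adjusted p = 0.0103). Cyp7a1, the rate-limiting enzyme of bile acid synthesis, was low at both times, with 1.22, 0.198 and 1.18 CPM at 6 h and 0.0511, 0.328 and 0 CPM at 12 h (log2 -2.74 ± 0.90, edgeR adjusted p = 0.0238). The call for Cyp7a1 was lost when Con A 6 h replicate 1 or 3 or Con A 12 h replicate 1 or 3 was left out and in a fit of these 6 libraries alone and with the mitochondrial share as covariate (edgeR adjusted p 0.0572 to 0.0838). The call for Nr1h4 was lost with the mitochondrial share as covariate (edgeR adjusted p = 0.053).

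The zones of the liver lobule, around the portal tract and around the central vein, were examined separately, since Wnt signals set the pericentral programme. Of 19 pericentral and Wnt target genes, 6 rose, 11 fell and 2 did not pass, with a median of -1.01. The falls were led by pericentral enzymes. Glul, glutamine synthetase, had 1665, 849 and 1502 CPM at 6 h and 285, 454 and 246 CPM at 12 h (log2 -2.03 ± 0.29, edgeR adjusted p = 1.6e-04), and Gulo and Cyp27a1 fell (log2 -2.02 and -1.56). The 6 rises were Lgr5, Rnf43, Sp5, Tbx3, Axin2 and Znrf3. Lgr5, the receptor for R-spondins, had 0.323, 0.693 and 0.789 CPM at 6 h and 2.32, 3.31 and 1.70 CPM at 12 h (log2 2.02 ± 0.39, edgeR adjusted p = 0.00113). Rnf43, the ubiquitin ligase that removes Wnt receptors, had 3.76, 1.91 and 2.21 CPM at 6 h and 9.86, 6.96 and 6.03 CPM at 12 h (log2 1.54 ± 0.30, edgeR adjusted p = 0.00115). Sp5, a transcription factor, was at or below 0.0789 CPM in each 6 h library and at 0.97, 1.18 and 0.481 CPM at 12 h (log2 4.08 ± 0.87, edgeR adjusted p = 0.00217). Tbx3, Axin2 and Znrf3 rose by log2 1.64, 0.97 and 0.93. The levels of Lgr5, Axin2 and Sp5 were below 4 CPM in every library. Notum, a secreted Wnt inhibitor and also a Wnt target, fell (log2 -1.35 ± 0.27, edgeR adjusted p = 0.0013). The call for Axin2 was lost when Con A 6 h replicate 3 or Con A 12 h replicate 1 or 2 was left out and in a fit of these 6 libraries alone (edgeR adjusted p 0.0661 to 0.0744). Of 16 periportal genes, 0 rose, 11 fell and 5 did not pass, with a median of -1.13; 7 fell with scaling by total count or without Con A 12 h replicate 2. Ass1, a urea cycle enzyme, had 2963, 1679 and 2407 CPM at 6 h and 261, 594 and 601 CPM at 12 h (log2 -2.28 ± 0.38, edgeR adjusted p = 4.3e-04), and Etnppl fell (log2 -3.35). 

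Of 27 transcription factors and nuclear receptors of hepatocytes, 8 rose, 8 fell and 11 did not pass. These shares were near the 24.4% and 24.8% of all tested genes. With scaling by total count, 4 fell. Zfp36l1, an RNA-binding regulator on this list, and Zhx2 fell (log2 -2.45 and -1.55), and Foxa1 and Onecut2 rose (1.43 and 1.41). Hnf4a, the master regulator of hepatocyte identity, had 587, 699.7 and 541 CPM at 6 h and 405, 493 and 499.9 CPM at 12 h and did not pass (log2 -0.39 ± 0.16, edgeR adjusted p = 0.0649). Of 15 genes of growth hormone and IGF signalling, 0 rose, 10 fell and 5 did not pass. Ghr, the growth hormone receptor, fell (log2 -1.56), and Lepr, the leptin receptor, had 11.6, 38.5 and 33.9 CPM at 6 h and 1.23, 1.41 and 4.03 CPM at 12 h (log2 -3.67 ± 0.63, edgeR adjusted p = 5.1e-04).

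The circadian clock is a feedback loop in which CLOCK or NPAS2 and BMAL1 (gene Arntl) drive the Per, Cry and Nr1d genes, whose products repress them. Of 23 core clock genes, 5 rose, 13 fell and 5 did not pass, with a median of -1.04. Without Con A 6 h replicate 2 the median was -0.63. Per1 had 111, 126 and 124 CPM at 6 h and 35.7, 26.8 and 26.4 CPM at 12 h (log2 -2.02 ± 0.24, edgeR adjusted p = 4.5e-05). Nr1d1, which encodes REV-ERB alpha, had 106, 82.0 and 85.2 CPM at 6 h and 25.5, 47.1 and 32.0 CPM at 12 h (log2 -1.39 ± 0.34, edgeR adjusted p = 0.00472). Dbp, a clock output factor, had 6.45, 4.13 and 6.31 CPM at 6 h and 0.740, 1.48 and 1.29 CPM at 12 h (log2 -2.27 ± 0.58, edgeR adjusted p = 0.00647). For these 3 genes the groups did not overlap. Cry2, Bhlhe40 and Nr1d2 fell (log2 -2.27, -3.51 and -2.05). The rises included Npas2, with 0.215, 0.297 and 0.552 CPM at 6 h and 4.49, 2.99 and 4.11 CPM at 12 h (log2 3.45 ± 0.54, edgeR adjusted p = 3.2e-04), Clock (log2 0.85) and Arntl. Arntl had 0.502, 5.65 and 2.92 CPM at 6 h and 11.6, 8.53 and 7.29 CPM at 12 h (log2 1.59 ± 0.59, edgeR adjusted p = 0.0392), and its 6 h libraries differed from one another by more than its 12 h libraries. The call for Arntl was lost when Con A 6 h replicate 1 or 3 or Con A 12 h replicate 1 or 2 was left out and in a fit of these 6 libraries alone (edgeR adjusted p 0.0502 to 0.0925). Hlf and Fbxl21 also rose (log2 0.66 and 1.46). Of 26 clock output and feeding rhythm genes, 1 rose, 16 fell and 9 did not pass. Noct, Por and Wee1 fell (log2 -2.83, -3.24 and -3.83). Upp2, a nucleoside phosphorylase, had 439, 396 and 468 CPM at 6 h and 3.75, 6.92 and 10.2 CPM at 12 h (log2 -5.97 ± 0.65, edgeR adjusted p = 2.8e-05). With MSC, 6 core clock genes rose and 11 fell. By edgeR 0 of the 23 passed the test of the difference from mice without MSC, against 0.126% of all tested genes. So few passed in all that 0 of 23 does not show equal changes.

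The E-box CACGTG, the site of CLOCK and BMAL1, was found in the 250 bases before the start of 5 of the 18 core clock genes with a RefSeq sequence (GRCm38.p6), against 9.58% of the 10583 tested genes with one. The palindrome reads the same on both strands. Cry1, among the 5, did not pass (log2 0.07), and Nr1d1 and Dbp, not among them, fell. The matches were not tested for function. Ciart, a repressor of the loop, held 3 matches and had 31.7, 18.6 and 11.4 CPM at 6 h and 1.53, 2.59 and 3.40 CPM at 12 h (log2 -3.04 ± 0.43, edgeR adjusted p = 1.5e-04). Its stretch at chr3:95882247-95882364 (minus strand) and that of Per1 at chr11:69098763-69098808 (plus strand) are shown with the matches in capitals.
Ciart: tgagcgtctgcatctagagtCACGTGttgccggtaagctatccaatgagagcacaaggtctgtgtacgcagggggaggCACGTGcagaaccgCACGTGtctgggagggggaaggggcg
Per1: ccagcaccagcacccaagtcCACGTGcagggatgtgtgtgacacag

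**Figure D5:**
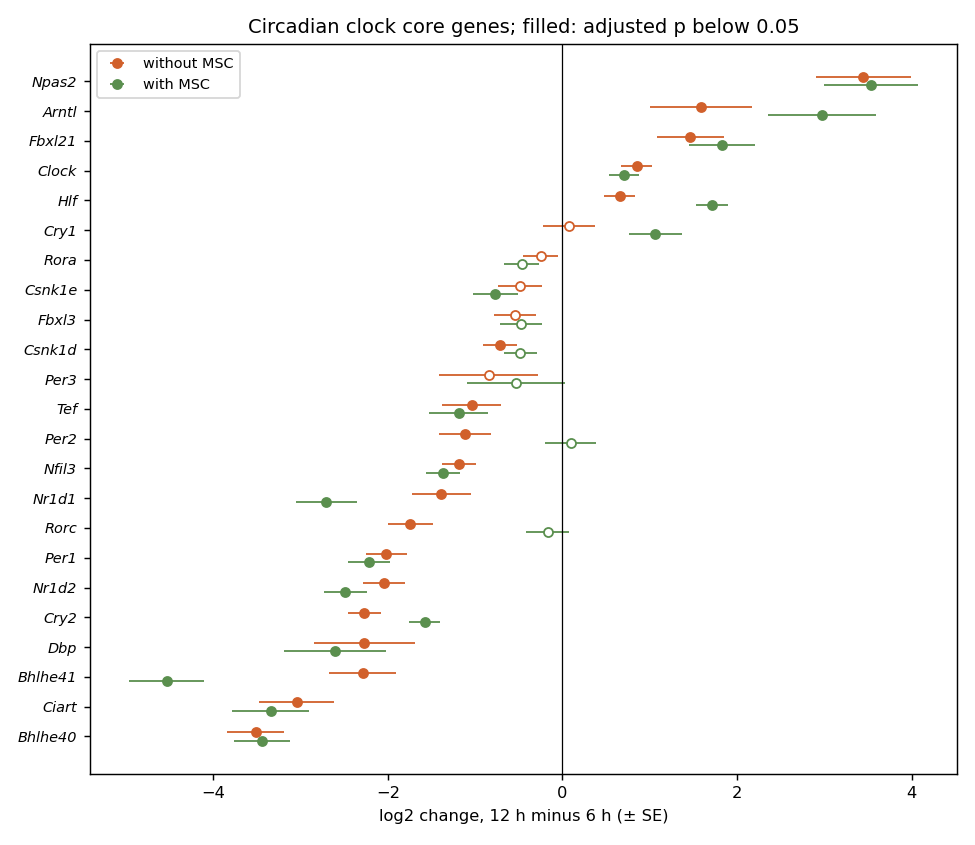
Log2 change from 6 h to 12 h (x axis, with 1 standard error) of each core clock gene without MSC (orange) and with MSC (green); filled points have an adjusted p below 0.05. Npas2 and Arntl lie to the right of 0 and Bhlhe40, Ciart, Dbp and Per1 to the left in both groups of mice.

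RNA of several non-hepatocyte cell types was lower at 12 h. Of 20 neutrophil genes, 0 rose, 16 fell and 4 did not pass, with a median of -2.13. S100a9, an abundant neutrophil protein, had 53.2, 39.7 and 78.8 CPM at 6 h and 14.2, 8.70 and 16.0 CPM at 12 h (log2 -2.14 ± 0.46, edgeR adjusted p = 0.00223), and Ngp, Trem1 and Mmp8 fell (log2 -2.79, -3.62 and -3.02). Of 19 genes of Kupffer cells, the resident macrophages, 2 rose, 12 fell and 5 did not pass, with a median of -1.65. Clec4f, a lectin of these cells, had 18.3, 14.5 and 7.77 CPM at 6 h and 1.28, 0.492 and 1.41 CPM at 12 h (log2 -3.67 ± 0.60, edgeR adjusted p = 3.9e-04), and Adgre1 and Fcna fell (log2 -3.78 and -2.24). Of 15 monocyte and inflammatory macrophage genes, 0 rose, 5 fell and 10 did not pass. The number of falls there was 3 without Con A 6 h replicate 2 or 3 and 9 without Con A 12 h replicate 3. Of 25 endothelial genes, 2 rose, 13 fell and 10 did not pass, with a median of -1.12. Cdh5, the cadherin of endothelial junctions, had 26.8, 18.4 and 36.9 CPM at 6 h and 4.83, 2.07 and 5.36 CPM at 12 h (log2 -2.74 ± 0.35, edgeR adjusted p = 8.4e-05), and Lyve1 and Flt1 fell (log2 -2.49 and -1.98). In the list of 25 genes of stellate cells and matrix, 1 rose, 13 fell and 11 did not pass, with a median of -1.06. Reln, the secreted protein reelin of stellate cells, had 27.9, 14.5 and 23.1 CPM at 6 h and 2.78, 3.02 and 3.51 CPM at 12 h (log2 -2.82 ± 0.25, edgeR adjusted p = 8.6e-06), and Col14a1 and Dcn fell (log2 -3.60 and -1.78). Of 11 red cell, platelet and mast cell genes, 0 rose, 8 fell and 3 did not pass, with a median of -2.30. The summed level of 5 red cell markers was 497 to 2238 CPM at 6 h and 124 to 365 CPM at 12 h. Of 10 bile duct genes, 1 rose, 0 fell and 9 did not pass, with a median of -0.43, and 2 fell without Con A 6 h replicate 2. The summed level of 4 bile duct markers was 53.8 to 87.7 CPM at 6 h and 34.7 to 59.3 CPM at 12 h.

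Cell division genes mostly did not pass. Of 24 genes of G1 to S phase, 1 rose, 5 fell and 18 did not pass, and of 20 genes of G2 and mitosis, 1 rose, 2 fell and 17 did not pass. Mki67, a proliferation marker, had 2.76, 2.41 and 4.89 CPM at 6 h and 1.30, 1.54 and 1.55 CPM at 12 h (log2 -1.19 ± 0.34, edgeR adjusted p = 0.0112). The call for Mki67 was lost when Con A 6 h replicate 3 was left out (edgeR adjusted p = 0.0815). Ccnd1, the cyclin of G1, had 41.3, 13.1 and 22.8 CPM at 6 h and 7.02, 5.45 and 7.84 CPM at 12 h (log2 -1.93 ± 0.39, edgeR adjusted p = 0.00149); some of its annotated exon length lies opposite another gene. Tk1 and Rrm2, which supply nucleotides, fell (log2 -2.21 and -2.03), and Mcm2, a helicase subunit, rose (log2 1.37 ± 0.25, edgeR adjusted p = 8.8e-04). 

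Ribosomal protein genes rose in part. Of 38 tested, 16 rose, 1 fell and 21 did not pass, with a median of 0.38. The number of rises was 27 with scaling by total count, 9 in a fit of these 6 libraries alone and 8 without Con A 6 h replicate 2. Rpl13a had 287, 219 and 264 CPM at 6 h and 558, 568 and 623 CPM at 12 h (log2 1.18 ± 0.18, edgeR adjusted p = 2.2e-04), with all 12 h libraries above all 6 h libraries; 35.4% of its exon length is shared with small nucleolar RNAs and a predicted gene. Of 27 constitutive proteasome subunits, 7 rose, 2 fell and 18 did not pass, and 11 rose with scaling by total count. Short genes rose more often than long ones. In protein-coding genes ordered by exon length (GENCODE, GRCm38), 30.1%, 27.0%, 22.5% and 17.3% rose from the shortest to the longest of 4 equal bins, and 23.2%, 24.3%, 25.8% and 28.5% fell. The part of length in these rises was not tested. Of 32 nuclear genes of the respiratory chain, 2 rose, 15 fell and 15 did not pass. The falls numbered 4 with scaling by total count, 8 without Con A 6 h replicate 3 and 9 when either Con A 6 h replicate 1 or the 12 h replicate 2 was left out. Atp5b, a subunit of ATP synthase, had 1077, 858 and 997 CPM at 6 h and 376, 336 and 259 CPM at 12 h (log2 -1.59 ± 0.22, edgeR adjusted p = 1.3e-04). Of 13 mitochondrially encoded genes 0 rose and 0 fell in edgeR's test, with 0 at an unadjusted p below 0.05. When the 12 h library of the lowest mitochondrial share, replicate 1, was left out, 12 rose.

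Beyond the lists, the rule for named genes picked the 12 largest rises and falls among genes with at least 5 CPM at the higher time and without overlap, leaving out predicted genes with Gm or Rik names and assembled loci. After the 3 chromosome 4 genes and Derl3, the rises were Ugt1a7c, Cgref1, Inhbe, Bhlha15, Rtn4rl1, Reg3b, Gjc3 and Slc17a9. Inhbe, a liver-made activin subunit, had 3.73, 1.49 and 1.77 CPM at 6 h and 53.7, 81.5 and 48.8 CPM at 12 h (log2 4.72 ± 0.46, edgeR adjusted p = 1.4e-05), a 26.3-fold rise. Bhlha15, which encodes the secretory cell transcription factor MIST1, had 0.860, 1.39 and 0.591 CPM at 6 h and 26.1, 21.7 and 11.7 CPM at 12 h (log2 4.37 ± 0.66, edgeR adjusted p = 2.3e-04). Reg3b, an antibacterial lectin, had 0.358, 0.891 and 0.867 CPM at 6 h and 18.7, 7.51 and 12.7 CPM at 12 h (log2 4.19 ± 0.61, edgeR adjusted p = 1.8e-04). All 12 h libraries of these genes were far above the 6 h libraries. Slc17a9, the vesicular nucleotide transporter, had 1.68, 3.04 and 1.66 CPM at 6 h and 30.8, 32.9 and 24.2 CPM at 12 h (log2 3.78 ± 0.32, edgeR adjusted p = 6.3e-06). Cgref1, Rtn4rl1 and Gjc3 rose by log2 4.90, 4.29 and 4.13. Ugt1a7c rose by log2 5.00 and shares 54.6% of its exon length with other Ugt1a genes, so that part of its reads could belong to them. 

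The largest falls, after Csf3, Sele, Cyp2a4, Upp2 and Adm, were Tnfsf15, Slamf1, Cyp2c55, Hsd3b5, Rgs16, Hsd3b3 and Fgf23. Rgs16, a regulator of G protein signalling, had 199, 67.6 and 125 CPM at 6 h and 1.30, 3.35 and 2.40 CPM at 12 h (log2 -5.80 ± 0.63, edgeR adjusted p = 2.6e-05). Slamf1, a receptor of activated lymphocytes and macrophages, had 5.48, 8.32 and 7.93 CPM at 6 h and 0, 0.0984 and 0.185 CPM at 12 h (log2 -6.34 ± 0.93, edgeR adjusted p = 1.9e-04). Fgf23, a phosphate-regulating hormone made mainly in bone, had 12.5, 3.73 and 8.36 CPM at 6 h and 0.204, 0 and 0.259 CPM at 12 h (log2 -5.70 ± 0.82, edgeR adjusted p = 1.7e-04). Tnfsf15, a cytokine of the TNF family, had 4.30, 5.02 and 7.93 CPM at 6 h and 0, 0 and 0.148 CPM at 12 h (log2 -6.97 ± 1.93, edgeR adjusted p = 0.0101). In mice with MSC, Tnfsf15 had 2.55, 1.73 and 129 CPM at 6 h, with replicate 3 far above the others. Hsd3b5 and Hsd3b3, steroid dehydrogenases of a family of near-identical genes, fell (log2 -5.85 and -5.74), and so did Cyp2c55 (-6.19). 

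Outside these, the following genes had among the smallest adjusted p-values. Cldn3, a tight junction protein, had 11.9, 8.98 and 8.44 CPM at 6 h and 69.4, 85.2 and 91.4 CPM at 12 h (log2 3.07 ± 0.19, edgeR adjusted p = 1.6e-06). Rab11fip4, Papss1 and Pllp rose by log2 3.49, 2.38 and 3.39; Papss1 makes the sulfate donor of sulfotransferases, and part of the exon length of Pllp lies opposite another gene. Tead1, the DNA-binding partner of YAP, had 132, 79.7 and 132 CPM at 6 h and 5.59, 4.99 and 6.81 CPM at 12 h (log2 -4.31 ± 0.24, edgeR adjusted p = 1.6e-06). Tiparp, a target and repressor of the aryl hydrocarbon receptor, had 259, 173 and 263 CPM at 6 h and 8.68, 12.1 and 13.1 CPM at 12 h (log2 -4.36 ± 0.24, edgeR adjusted p = 1.6e-06). Rcan1, an inhibitor of calcineurin induced by calcium signals, had 98.3, 122 and 105 CPM at 6 h and 17.6, 15.9 and 16.5 CPM at 12 h (log2 -2.70 ± 0.16, edgeR adjusted p = 1.6e-06). For Tead1, Tiparp and Rcan1 no 12 h library came near a 6 h library.

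The same comparison in the 6 libraries of mice that received MSC, which share no library with those above, had the same direction for most called genes. Of the genes that passed without MSC, 4320 passed in the same direction with MSC, 31 in the opposite direction and 2669 did not pass with MSC. Across the 14275 genes, which are not independent replicates, the log2 changes had a Pearson r of 0.693. The difference between the 2 changes passed for 18 genes (0.126% of those tested). Leaving out any 1 of the 12 libraries gave between 3 (without Con A 12 h replicate 2) and 131 genes (without Con A+MSC 12 h replicate 1), and DESeq2 gave 705. The type I interferon list had a median of -1.80 without MSC (-1.17 when Con A 6 h replicate 2 was left out) and 0.22 with MSC, where 3 rose and 1 fell, and 0 of its 24 members passed the test of the difference. Lists of other cell types parted as well. Endothelial genes had medians of -1.12 without and 0.21 with MSC, where 10 rose and 4 fell, and 1 of 25 passed that test. Stellate and matrix genes had -1.06 and 0.11, with 8 rises and 5 falls with MSC. Kupffer cell genes had -1.65 and -0.195, with 2 rises and 5 falls with MSC. In these last lists 0 passed the test of the difference. The ER chaperone list had medians of 1.14 and 1.11. Hpgd, which breaks down prostaglandin E2, fell more without MSC. It had 98.7, 161 and 138 CPM at 6 h and 7.20, 7.68 and 9.65 CPM at 12 h without MSC and 81.8, 64.7 and 95.2 CPM at 6 h and 25.0, 27.4 and 33.2 CPM at 12 h with MSC, and the difference of the log2 changes was -2.52 ± 0.30, edgeR adjusted p = 0.00912. Csrp1, a cytoskeletal protein, had 26.2, 45.2 and 28.6 CPM at 6 h and 5.00, 4.40 and 5.51 CPM at 12 h without MSC and 14.4, 13.0 and 15.0 CPM at 6 h and 10.4, 20.2 and 17.3 CPM at 12 h with MSC (difference -2.92 ± 0.36, edgeR adjusted p = 0.00912). When Con A 12 h replicate 2 was left out, neither Hpgd nor Csrp1 passed (edgeR adjusted p = 0.0505 for both), and 3 genes passed in all. Csrp1 did not pass with the mitochondrial share as covariate either (edgeR adjusted p = 0.0582). Syt12, a synaptotagmin, had 85.4, 78.0 and 78.2 CPM at 6 h and 38.4, 32.1 and 38.5 CPM at 12 h without MSC and 104, 111 and 107 CPM at 6 h and 13.3, 16.8 and 10.9 CPM at 12 h with MSC (difference 1.83 ± 0.23, edgeR adjusted p = 0.00912). Gm45717 had 0, 0.0991 and 0.276 CPM at 6 h and 16.0, 21.9 and 26.9 CPM at 12 h without MSC and 40.9, 32.9 and 25.6 CPM at 6 h and 9.83, 20.1 and 24.8 CPM at 12 h with MSC (difference 8.30 ± 0.71, edgeR adjusted p = 5.7e-04). The assembled locus MSTRG.15211 had 0, 0.0991 and 0 CPM at 6 h and 0.613, 1.12 and 2.26 CPM at 12 h without MSC, from 3 counts at 6 h to 119 at 12 h, a ratio of 34.3 (95% counting interval 11.5 to 169), and 6.64, 6.35 and 13.4 CPM at 6 h and 0.339, 0.767 and 0.0904 CPM at 12 h with MSC. Gm45717 shares all of its annotated exon length with Ifitm genes, so that its reads cannot be told apart from theirs.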

How the data were processed

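RNA of mouse liver was sequenced in 4 groups of 3 libraries, and the authors deposited raw counts per gene for each library. StringTie 2.1.2, HISAT2 2.0.4, Bowtie2 2.2.5 and the build GRCm39 are named per the submitters' processing notes, with no role stated; for the counting program, annotation and strandedness, the sources used here give nothing. All 12 libraries were fitted with 4 group means in edgeR 4.0.16 (R 4.3.3) after TMM scaling and edgeR's filter on low counts, with the quasi-likelihood test, 8 residual degrees of freedom and Benjamini-Hochberg adjustment at 0.05. DESeq2 1.42.0 was an alternative, beside other scalings, filters, covariates and left-out libraries. The test was tried on simulated counts first. Genes were named by rule: the 12 largest rises and falls without overlap and with at least 5 CPM at the higher time, leaving out Gm, Rik and assembled-locus names, the 5 smallest adjusted p-values in each direction, a panel of 32 genes, the leading members of each list, and the 5 smallest p-values of the difference from mice with MSC; further list members were named after their values were seen. The comparison, the 51 gene lists and the panel were chosen with earlier results of these data known. Exon overlaps and lengths come from GENCODE M21 (GRCm38), and promoter sequences from RefSeq (GRCm38.p6); positions on these builds were not mixed with GRCm39. Some members of the lists are counted and not reported here by name.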

Additional observations from a re-analysis of the deposited data

Results flagged for a closer look

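The change from 6 h to 12 h differed between mice without and with MSC for 18 genes in edgeR's test of the difference itself. The 5 with the smallest adjusted p-values had differences, without MSC minus with MSC on the log2 scale, of 8.30 for Gm45717, -2.52 for Hpgd, 1.83 for Syt12, -2.92 for Csrp1 and 9.50 for MSTRG.15211. The values for Gm45717 and MSTRG.15211 are fitted from groups with few counts and depend on how the fit treats them.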

How the results depend on the processing

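The number of rises was 2870 to 4301 and that of falls 2353 to 3796 over the alternatives that kept all replicates, the 2353 coming with scaling by total count. Leaving out each Con A library in turn gave 2799 to 3519 rises and 2791 to 3362 falls. The difference between mice without and with MSC passed for 18 genes, against 211 with scaling by total count, 705 with DESeq2, 45 without the filter on low counts and 9 with the mitochondrial share as covariate, and for 3 to 131 genes when 1 of the 12 libraries was left out; the cause was not tested. The mitochondrial share differed by 6.16 percentage points, and by 1.67 to 11.3 when 1 library was left out. Libraries with the same replicate number correlated in their deviations from the group means at 0.108, -0.061 and 0.190, so the numbers were not taken to pair the samples. With replicate number as a block, 3250 genes rose, 3360 fell and 15 differed by MSC. Of 229 genes named in the text, 218 passed, and 203 of these kept direction and call in all 14 alternatives run for them; over 3047 pairs of a called gene and an alternative, 68 lost the call and 0 changed direction. Of the genes that did not pass, these changed sign: Mt1 (-0.28 with mitochondrial share as covariate), Mt2 (-0.40 with mitochondrial share as covariate, -0.03 without Con A 6 h replicate 2, -0.13 without Con A 12 h replicate 3, and up to 0.38 when another library was left out).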
